A study of Mus musculus with 16 samples.

Results

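Adipokines are signalling proteins secreted by fat cells, and 10 listed genes were examined, 5 adipokines (Lep, Adipoq, Retn, Rarres2 and Cfd) and 5 receptors for them (Lepr, Adipor1, Adipor2, Cdh13 and Cmklr1). Members were taken as the probe sets whose annotated symbol is one of these names. Of the 10 genes, 9 had a named probe set, 1 each, among 19505 named genes and 22206 probe sets, and Cfd, the serine protease adipsin, was not analysed here. Expression was measured on Affymetrix arrays in liver and in eWAT, the labels' name for a white fat tissue, of male C57BL/6J mice aged 14 weeks. F1 mice had an obese father, which had eaten a diet with 45% lipid for 12 weeks from the age of 8 weeks, and a control mother. CT mice had 2 control parents, the father having been kept on chow. Each of the 4 groups (eWAT F1, eWAT CT, liver F1 and liver CT) held 4 libraries, numbered 1 to 4 as in the labels. The F1 label therefore marks the father's diet, and no diet of the offspring themselves is given in the sources used here. Fathers, litters and cages are not given either, so each p-value reflects how far these particular libraries scatter, and any that share a father were counted as separate.

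Leptin, made by Lep, reports the size of the fat stores to the brain, where its receptor Lepr signals through the kinase Jak2 and the transcription factor Stat3, and the same pathway induces its own inhibitor Socs3. Adiponectin, made by Adipoq, circulates at high levels in lean animals and acts through Adipor1 and Adipor2, which favour fatty acid oxidation and ceramide breakdown, while Cdh13 (T-cadherin) holds the larger adiponectin complexes on vessel walls. Resistin (Retn) is made by fat cells in mice, and chemerin (Rarres2) is made by both fat and liver and recruits leukocytes through Cmklr1.

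The values are log2 expression values with a range of 1.47 to 19.93. Pearson correlations between libraries of 1 tissue were 0.976 to 0.991. The library medians were 6.34 to 6.56 in eWAT and 5.21 to 5.24 in liver, as separate normalization of each tissue would leave them, so differences between the tissues are approximate in size. The labelled tissues matched their markers. The median of 13 named adipocyte markers was 17.41 to 17.71 in eWAT F1, 17.27 to 17.41 in eWAT CT, 6.75 to 7.83 in liver F1 and 6.51 to 7.65 in liver CT. Transcripts of other organs were also present in some libraries. The median of 15 hepatocyte markers lay at 11.63, 14.31, 11.29 and 15.52 in eWAT F1 and at 8.66, 7.17, 14.37 and 14.03 in eWAT CT, and the seminal vesicle genes Svs2 and Svs4 reached 16.22 and 14.01 in eWAT F1 1 alone. The median of 19 exocrine pancreas markers was 10.68 in liver F1 4, against 4.03 to 4.52 in liver CT.

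Promoter windows were available for 8 of the 10 genes, from 250 bases before to 50 bases after a RefSeq transcription start on build GRCm38.p6. Those below are shown because Lep, Adipoq and Retn had the widest gap between the tissues and Lepr the smallest p of these genes between F1 and CT liver. Capitals mark TTGCNNAA, a C/EBP-type motif (C/EBP factors drive the fat cell programme), which was searched on both strands.

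Lep, chr6:29059971-29060270 (+ strand): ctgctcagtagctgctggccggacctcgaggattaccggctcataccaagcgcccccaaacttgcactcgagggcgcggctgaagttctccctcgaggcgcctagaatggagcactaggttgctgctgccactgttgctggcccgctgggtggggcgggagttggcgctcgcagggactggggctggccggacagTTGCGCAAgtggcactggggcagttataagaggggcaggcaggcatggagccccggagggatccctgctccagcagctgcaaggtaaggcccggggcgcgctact
Adipoq, chr16:23146286-23146585 (+ strand): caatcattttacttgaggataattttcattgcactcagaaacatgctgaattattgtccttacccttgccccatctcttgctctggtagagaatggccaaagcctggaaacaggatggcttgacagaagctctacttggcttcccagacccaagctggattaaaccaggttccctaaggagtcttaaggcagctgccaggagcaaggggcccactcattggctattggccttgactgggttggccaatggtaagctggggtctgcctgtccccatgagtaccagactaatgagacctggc
Retn, chr8:3655520-3655819 (+ strand): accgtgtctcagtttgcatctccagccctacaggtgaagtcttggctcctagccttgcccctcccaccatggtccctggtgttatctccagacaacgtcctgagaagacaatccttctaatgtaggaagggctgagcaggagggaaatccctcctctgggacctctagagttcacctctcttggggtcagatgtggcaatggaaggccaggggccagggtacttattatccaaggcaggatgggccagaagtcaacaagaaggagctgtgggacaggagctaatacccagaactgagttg
Lepr, chr4:101717656-101717955 (+ strand): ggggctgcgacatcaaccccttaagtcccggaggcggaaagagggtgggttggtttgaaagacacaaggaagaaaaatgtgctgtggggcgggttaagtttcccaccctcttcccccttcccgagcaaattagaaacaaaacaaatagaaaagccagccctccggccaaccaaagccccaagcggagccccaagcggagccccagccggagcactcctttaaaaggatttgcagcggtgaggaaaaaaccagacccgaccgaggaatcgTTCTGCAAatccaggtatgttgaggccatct

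TTGCNNAA was found in 2 of the 10 windows of these genes, against 10.8% of 32851 RefSeq promoters. In Lep it began at base -55 from the start and matched on both strands at the same bases. In Lepr, for which the second of 2 starts is printed, it began at base 20 after the start, on the minus strand. The letters TATAAA (the classical core promoter box) were in 0 of the 10 windows and in 13.6% of all promoters. CACGTG, an E-box, was found in the Cmklr1 window at base -145 and in 7.15% of all promoters. These matches describe letters and show no binding.

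The ligands Lep, Adipoq and Retn were bright in every eWAT library and at the bottom of the scale in every liver library. Lep had 16.35, 16.93, 17.02 and 17.56 in eWAT F1, and 17.73, 17.87, 17.56 and 17.21 in eWAT CT. Its liver values were 3.41, 3.35, 3.64 and 3.28 in F1, and 3.41, 3.28, 3.33 and 3.76 in CT. No library of one tissue came near the other tissue.

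**Figure D1:**
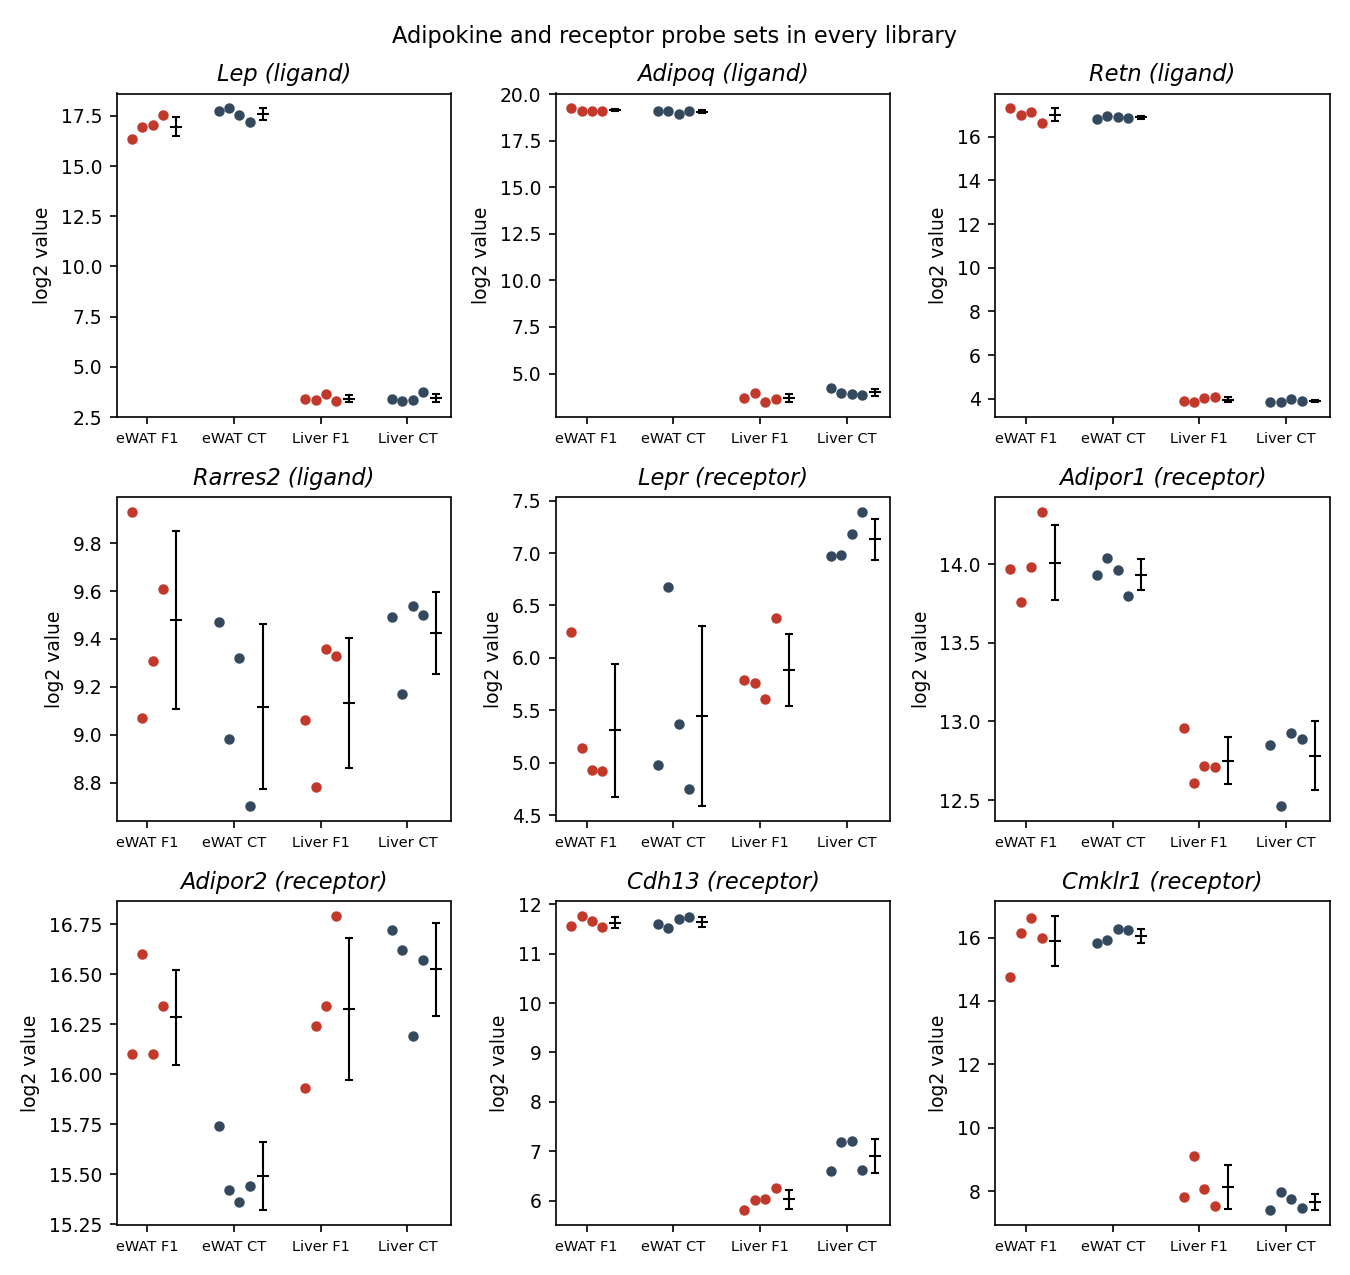
Log2 value (vertical axis, a separate scale per gene) of the 9 adipokine and receptor probe sets in eWAT F1, eWAT CT, liver F1 and liver CT. Each point is a library in the order of its number, and the bar beside each group is the mean with 1 SD (n = 4). Lep, Adipoq, Retn, Cdh13 and Cmklr1 separate the tissues by the widest gaps, while the liver groups separate for Lepr and Cdh13 and the eWAT groups for Adipor2.

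Adipoq averaged 19.14 ± 0.07 in eWAT F1 and 19.06 ± 0.07 in eWAT CT, and 3.69 ± 0.21 in liver F1 and 3.99 ± 0.18 in liver CT (mean ± SD, n = 4 each). Its eWAT values were within 1 log2 unit of the top of the scale (19.93). Retn averaged 17.01 ± 0.29 in eWAT F1 and 16.88 ± 0.07 in eWAT CT, and 3.97 ± 0.11 in liver F1 and 3.90 ± 0.06 in liver CT (n = 4 each). The difference of eWAT minus liver was 13.55 ± 0.24 (SE) for Lep, 15.45 ± 0.17 for Adipoq and 13.05 ± 0.19 for Retn in F1 mice. In CT mice it was 14.15 ± 0.19, 15.07 ± 0.16 and 12.99 ± 0.14 for the same 3 genes (limma, adjusted p from 1.57e-12 to 1.24e-11 in all 6 cases). The sizes are approximate, since the liver values lie at or near the level below which genes were left out as dim (3.91 in liver), and the 3 genes entered these tests through their eWAT values. Over the 15 alternatives run, the differences were between 11.77 and 16.22 and passed each time. In bulk tissue, fewer cells of a type and less RNA per cell cannot be told apart.

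Rarres2, the chemerin ligand, did not follow them. Its values were 9.93, 9.07, 9.31 and 9.61 in eWAT F1, and 9.47, 8.98, 9.32 and 8.70 in eWAT CT. Liver values were 9.06, 8.78, 9.36 and 9.33 in F1, and 9.49, 9.17, 9.54 and 9.50 in CT. All 4 groups overlapped their neighbours in level, in the order eWAT F1, liver CT, liver F1 and eWAT CT. The difference of eWAT minus liver was 0.35 ± 0.23 in F1 mice (limma, adjusted p = 0.185) and -0.31 ± 0.20 in CT mice (adjusted p = 0.190). Both depend on scaling. With each library centred on its median, Rarres2 was lower in eWAT, by -0.91 in F1 (adjusted p = 0.00394), where the direction turned, and by -1.52 in CT (9.07e-05), where it did not. Quantile normalization gave -0.85 in F1 (0.00717) and -1.50 in CT (7.12e-05).

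Cmklr1, the chemerin receptor, and Cdh13 were receptors with a wide gap between the tissues. Cmklr1 averaged 15.88 ± 0.79 in eWAT F1 and 16.07 ± 0.22 in eWAT CT, and 8.14 ± 0.69 in liver F1 and 7.65 ± 0.26 in liver CT (n = 4 each). The difference of eWAT minus liver was 7.75 ± 0.42 in F1 mice (limma, adjusted p = 2.88e-08) and 8.42 ± 0.19 in CT mice (adjusted p = 8.94e-11). Cdh13 was 5.61 ± 0.17 higher in eWAT than in liver in F1 mice (adjusted p = 3.37e-10) and 4.75 ± 0.19 higher in CT mice (adjusted p = 4.51e-09). Macrophages and endothelial cells are among the cells known to carry these receptors, and most of their listed markers were also higher in eWAT. In eWAT the macrophage list median was 10.69 to 11.27 in F1 and 10.62 to 11.24 in CT. In liver it was 8.68 to 9 in F1 and 8.00 to 8.45 in CT. The endothelial list median was 11.29 to 12.13 in eWAT F1, 11.48 to 11.94 in eWAT CT, 8.69 to 9.42 in liver F1 and 8.57 to 8.83 in liver CT. In F1 and in CT mice alike, 12 of 15 macrophage markers were called higher in eWAT and 3 lower. Of 12 endothelial markers, 10 were called higher and 2 lower in both. Over all genes, 75.8% of calls in F1 and 76.2% in CT were higher in eWAT, a share that moved with the scaling. The part of macrophages and endothelial cells in the receptor levels was not tested.

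Adipor1 and Adipor2 were bright in both tissues. Adipor1, the adiponectin receptor prominent in muscle, averaged 14.01 ± 0.24 in eWAT F1 and 13.93 ± 0.10 in eWAT CT, and 12.75 ± 0.15 in liver F1 and 12.78 ± 0.22 in liver CT (n = 4 each). It was 1.26 ± 0.18 higher in eWAT in F1 mice (limma, adjusted p = 7.20e-05) and 1.15 ± 0.17 higher in CT mice (adjusted p = 8.71e-05). Neither difference held with libraries centred on their medians (0.00 in F1 and -0.07 in CT). Adipor2, the adiponectin receptor prominent in liver, was lower in eWAT than in liver in CT mice (-1.04 ± 0.18, adjusted p = 3.07e-04). In F1 mice the difference was -0.04 ± 0.22 (adjusted p = 0.876), and it became 0.32 after quantile normalization and -1.30 after centring (adjusted p = 2.26e-04).

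Lepr was brightest in CT liver. In eWAT it was low, at 4.92 to 6.25 in F1 and 4.75 to 6.68 in CT, beside library medians of 6.34 to 6.56. The difference of eWAT minus liver was -0.58 ± 0.31 in F1 mice (limma, adjusted p = 0.111) and -1.69 ± 0.37 in CT mice (adjusted p = 0.00164). Without eWAT F1 1, which had the highest Lepr value of its group, the F1 difference was -0.89 (adjusted p = 0.00471). It was -1.60 after quantile normalization and -1.83 after centring (adjusted p = 2.66e-04 and 2.72e-04). Over the 9 genes, 6 were called in F1 mice, all higher in eWAT, against 75.6% of all tested genes. In CT mice 8 of 9 were called, 6 higher and 2 lower in eWAT, against 75.2% of all tested genes. Those shares are near the background. The split by direction moved with the scaling. After quantile normalization 6 members were called higher and 2 lower in eWAT in F1 mice, and 6 higher and 3 lower in CT mice. After centring 5 were higher and 3 lower in F1 mice, and 5 higher and 3 lower in CT mice. Over all genes, the share of calls that were higher in eWAT was 75.8% in F1 and 76.2% in CT as deposited, 51.4% in both after quantile normalization, and 36.7% in F1 and 38.2% in CT after centring. The median difference over the 9 genes was 5.61 in F1 and 4.75 in CT, beside 0.84 over all tested genes in each.

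Between F1 and CT liver, the receptors Lepr and Cdh13 were lower in every F1 library. Lepr had 5.79, 5.76, 5.61 and 6.38 in F1 liver, against 6.97, 6.98, 7.18 and 7.39 in CT liver. The groups did not overlap, and the highest F1 library was number 4, the one with pancreas transcripts. The difference was -1.25 ± 0.20 (SE), a 2.37-fold lower level, with a 95% interval, not adjusted for the number of genes, of -1.68 to -0.81. Lepr ranked 24 among 14722 genes by p, 1 place beyond the 23 that were called, and missed the threshold by a little (limma, adjusted p = 0.0540).

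This result sits on the threshold and moves across it with the processing. It passed with a stricter filter on dim genes (adjusted p = 0.0437), quantile normalization (0.0408), centring (0.0444) and a trended, robust variance (0.0311). It also passed without liver F1 4 (-1.41, adjusted p = 0.0275). It did not pass with array weights (0.0507), without a filter (0.0541), with 16 libraries in 1 fit (0.217) or without any other single library (0.0993 to 0.170). The difference itself stayed between -1.41 and -1.15 in all 16 alternatives run.

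Cdh13 had 5.80, 6.01, 6.04 and 6.26 in F1 liver, against 6.59, 7.19, 7.20 and 6.61 in CT liver. These groups did not overlap either. The difference was -0.87 ± 0.20, a 1.83-fold lower level, which did not pass (limma, adjusted p = 0.176) except in the fit of 16 libraries (adjusted p = 0.0319). Of 12 tested endothelial markers, 6 had a higher and 6 a lower mean in F1 liver, 0 were called (1 higher and 0 lower at an unadjusted p under 0.05), and their median difference was 0.04.

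The other tested members differed less in liver. Cmklr1 had 7.81, 9.12, 8.07 and 7.54 in F1 liver, against 7.40, 7.97, 7.74 and 7.48 in CT liver, a difference of 0.49 ± 0.31 (adjusted p = 0.696) that was 0.16 without F1 2. The macrophage list median did not overlap between the liver groups (8.68 to 9 in F1, 8.00 to 8.45 in CT), although 8 of its 14 tested genes had a higher and 6 a lower mean and 0 were called. The part of macrophages in the Cmklr1 value was not tested. Rarres2 differed by -0.29 ± 0.18 (adjusted p = 0.671), Adipor2 by -0.20 ± 0.21 (0.827), Retn by 0.07 ± 0.13 (0.923) and Adipor1 by -0.03 ± 0.16 (0.974). Lep and Adipoq were too dim in liver to be tested.

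In all, 0 of the 7 tested members were called in liver by limma, where 0.156% of all genes were. At an unadjusted p under 0.05, 0 members were higher, beside 4.48% of all genes, and 2 were lower, beside 4.67% of all genes. The groups did not overlap for 2 members, beside 5.37% of all genes. The median difference of the 7 was -0.20, beside 0.00 over all genes.

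**Figure D2:**
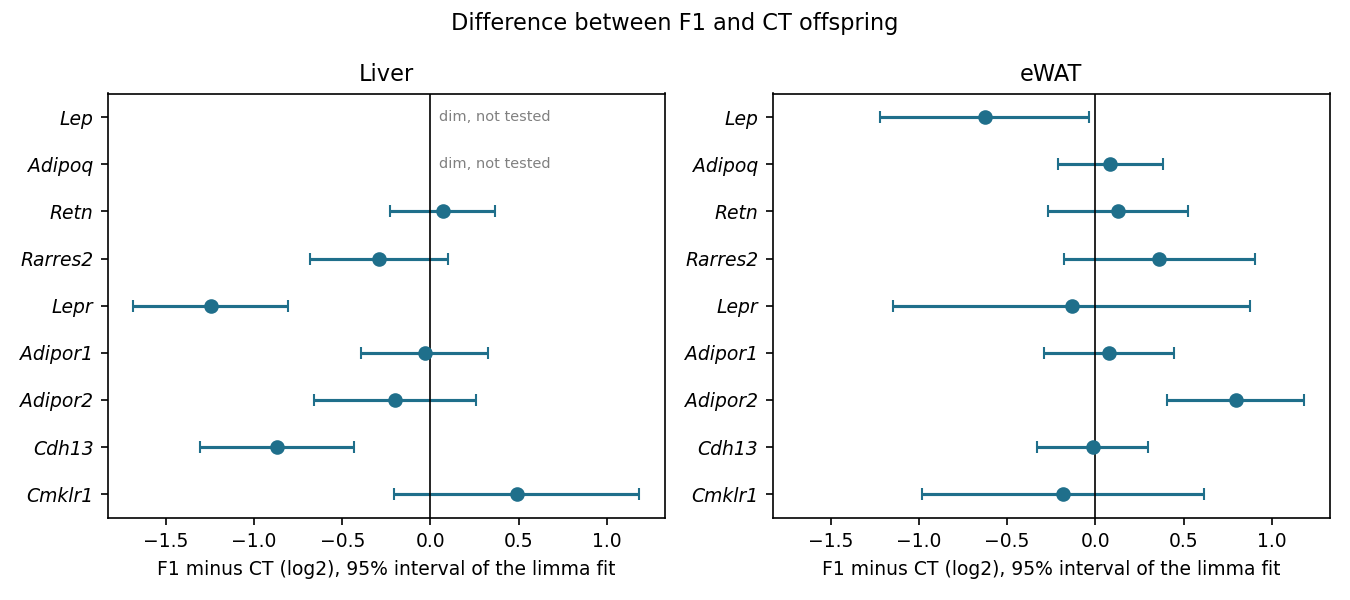
Difference of F1 minus CT (horizontal axis, log2) of each tested adipokine and receptor gene in liver and in eWAT. Bars are the 95% interval of the limma fit (n = 4 against 4). Lep and Adipoq were too dim in liver to be tested and have no point there. In liver the intervals of Lepr (-1.68 to -0.81) and Cdh13 (-1.31 to -0.43) lie below 0, and in eWAT that of Adipor2 (0.41 to 1.18) lies above 0 and that of Lep (-1.22 to -0.04) just below.

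The signalling genes downstream of Lepr were read beside it. Of 28 listed genes of leptin receptor signalling, 25 were tested in liver, and 11 had a higher and 14 a lower mean in F1, with a median difference of -0.04 beside 0.00 over all genes. Stat3, the transcription factor that leptin and interleukin-6 receptors activate, was the 1 gene called. It had 13.19, 13.28, 12.88 and 12.75 in F1 liver, against 11.99, 11.84, 11.47 and 11.40 in CT liver, with no overlap. The rise was 1.35 ± 0.19 (limma, adjusted p = 0.0335). The call was lost without any one of liver F1 1, F1 2, F1 3, CT 2, CT 3 or CT 4 (adjusted p = 0.0866 to 0.118), and the rise was 1.26 or more in all 16 alternatives run.

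Irs1, an adaptor shared by leptin and insulin signalling, lay at 9.39, 8.72, 8.52 and 9.63 in F1 liver, against 10, 10.19, 10.47 and 10.60 in CT liver. Its difference was -1.25 ± 0.26 (adjusted p = 0.145), without overlap, and it passed with the trended, robust variance (0.0405) and in the fit of 16 libraries (0.0238). Socs3, the feedback inhibitor of the receptor, had 5.66, 7.60, 5.04 and 5.48 in F1 liver, against 4.69, 4.18, 4.56 and 5.02 in CT liver. F1 2 set much of that difference of 1.33 ± 0.48 (adjusted p = 0.454), which was 0.78 without it. Akt1, a kinase downstream of Irs1, differed by 0.49 ± 0.16 (adjusted p = 0.387). Leprot, which overlaps Lepr in the genome and controls the receptor's display on the cell surface, differed by -0.22 in liver and by -0.13 in eWAT and was not called in either.

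**Figure D3:**
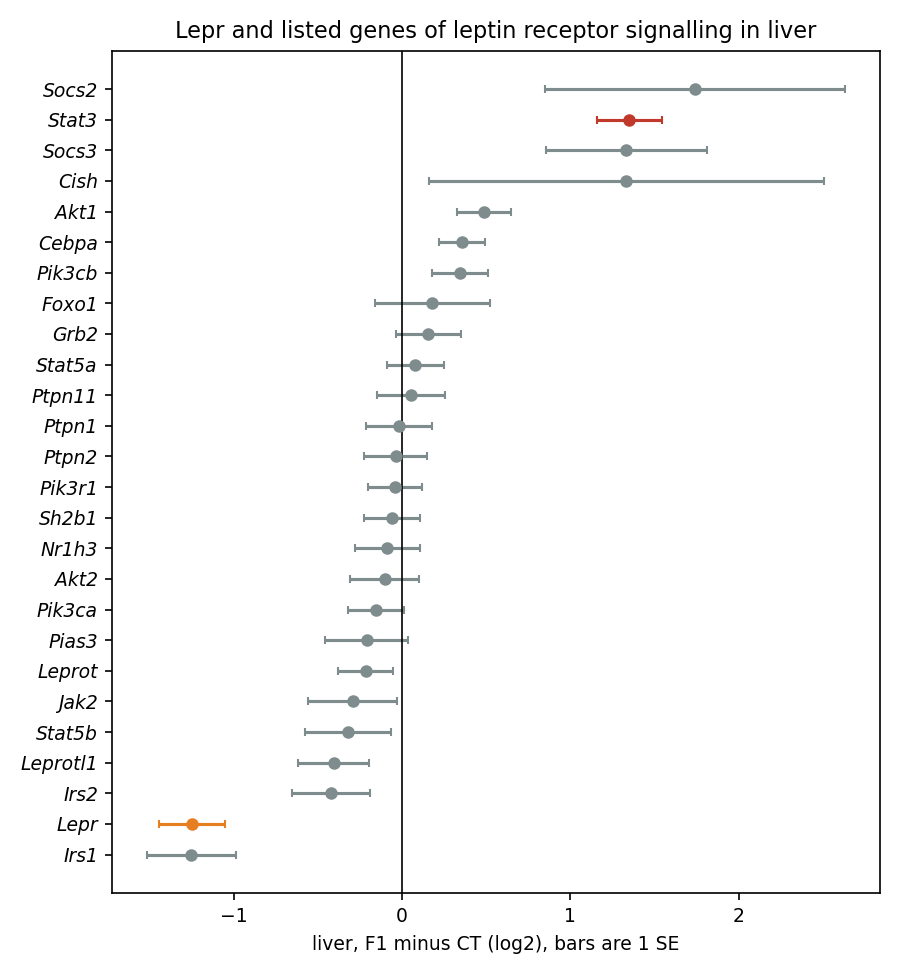
Difference of F1 minus CT in liver (horizontal axis, log2, bars of 1 SE, n = 4 against 4) of Lepr and of 25 listed genes of leptin receptor signalling, ordered by size. Stat3 (red, 1.35) passed the test, Lepr (orange, -1.25) did not, and Irs1 (-1.25) lies beside Lepr.

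Over the 8 liver libraries, the genes whose values followed Lepr most closely were Retsat (Pearson r = 0.967), Irs1 (0.959), Shfl (0.959), Ankrd26 (0.954) and Mpc1 (0.951). Retsat encodes retinol saturase and Mpc1 a subunit of the mitochondrial pyruvate carrier. The 8 points fall into the F1 and CT groups, so these values largely restate the group difference, and 39 of 14065 genes had r over 0.9.

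In eWAT, Adipor2 was higher and Lep was lower on average in F1 mice, and neither passed. Adipor2 had 16.10, 16.60, 16.10 and 16.34 in F1 eWAT, against 15.74, 15.42, 15.36 and 15.44 in CT eWAT, so the lowest F1 value lay above the highest CT value. The difference was 0.80 ± 0.17, a 1.74-fold higher level (limma, adjusted p = 0.362), with a 95% interval of 0.41 to 1.18. No alternative run brought it past the threshold (adjusted p = 0.0994 to 0.713).

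Adipor2 is abundant in liver, and hepatocyte transcripts differed among the eWAT libraries, all 15 hepatocyte markers having a higher mean in F1 eWAT (median difference 1.88, 0 called). In the 4 libraries with a hepatocyte median of 14 or more (F1 2, F1 4, CT 3 and CT 4), Adipor2 differed by 1.07 ± 0.24. In the other 4 libraries it differed by 0.52 ± 0.26. With high or low hepatocyte transcripts as a block it was 0.80 ± 0.18 (limma, adjusted p = 0.195). Each level of that block held 2 F1 and 2 CT libraries, so the block could change the error but not the difference. The unchanged 0.80 is therefore no test of hepatocyte transcripts. The fits within the high and the low set are each 2 libraries against 2. In the high set the hepatocyte median was 14.31 and 15.52 in F1 against 14.37 and 14.03 in CT. In the low set it still differed, at 11.63 and 11.29 in F1 against 8.66 and 7.17 in CT. The part of hepatocyte transcripts in the Adipor2 value was not tested.

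Lep differed by -0.63 ± 0.26 between F1 and CT eWAT, a 1.54-fold lower level (limma, adjusted p = 0.471), and the groups overlapped. F1 1, with the seminal vesicle transcripts and the highest brown adipocyte marker median (5.94, against 4.46 to 4.71 in CT eWAT), had the lowest Lep value. The difference was -0.42 without it. Among libraries low in hepatocyte transcripts it was -1.12 ± 0.31, and among those high in them -0.14 ± 0.32, so its size rests on which libraries are compared.

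**Figure D4:**
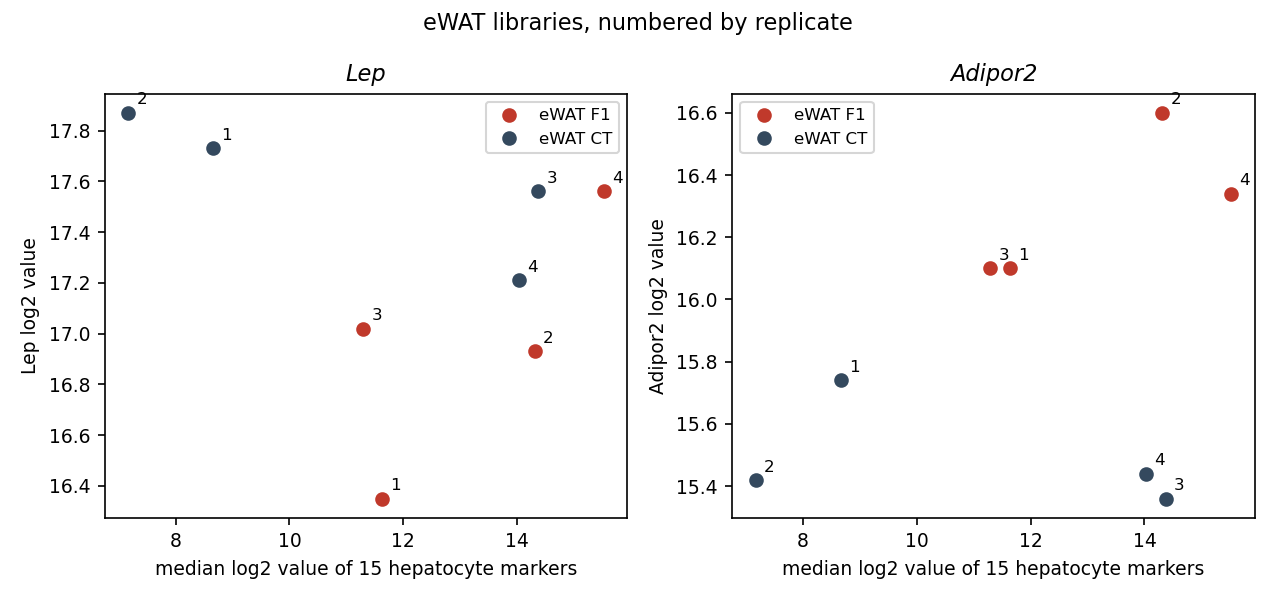
Log2 value of Lep (left) and Adipor2 (right) in the 8 eWAT libraries against the median log2 value of 15 hepatocyte markers, with points labelled by replicate number. The 4 F1 libraries lie above the 4 CT libraries for Adipor2 and overlap them for Lep, and below a hepatocyte median of 14 the F1 libraries (11.29 and 11.63) lie to the right of the CT libraries (7.17 and 8.66).

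The ligands Adipoq and Retn differed little in eWAT. Adipoq had 19.24, 19.11, 19.11 and 19.10 in F1, against 19.09, 19.10, 18.95 and 19.08 in CT (0.09 ± 0.13, adjusted p = 0.845), and the direction turned to -0.07 after quantile normalization. Retn had 17.30, 17.00, 17.13 and 16.61 in F1, against 16.79, 16.96, 16.91 and 16.87 in CT, a difference of 0.13 ± 0.18 (adjusted p = 0.824). Rarres2 differed by 0.36 ± 0.24 (adjusted p = 0.640).

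The receptors other than Adipor2 also overlapped between the eWAT groups. Lepr had 6.25, 5.14, 4.93 and 4.92 in F1, against 4.98, 6.68, 5.37 and 4.75 in CT. One library in each group stood high, F1 1 and CT 2, and the difference of -0.14 ± 0.45 (adjusted p = 0.938) became 0.28 without CT 2. Cmklr1 had 14.76, 16.15, 16.62 and 16 in F1, against 15.84, 15.91, 16.28 and 16.23 in CT. Its difference of -0.18 ± 0.35 (adjusted p = 0.882) rested on F1 1 and was 0.19 without it. Adipor1 differed by 0.08 ± 0.16 (adjusted p = 0.893) and Cdh13 by -0.02 ± 0.14 (adjusted p = 0.981), with a 95% interval of -0.33 to 0.30 for Cdh13.

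In total 0 of the 9 members, and 0% of all genes, were called in eWAT by limma. At an unadjusted p under 0.05, 1 member was higher, beside 4.97% of all genes, and 1 was lower, beside 5.02% of all genes. The groups did not overlap for 1 member, beside 5.92% of all genes. The median difference of the 9 was 0.08, beside 0.00 over all genes.

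Over the 8 eWAT libraries, Syp (Pearson r = 0.983), Qpct (0.980), Fstl3 (0.976), Zc2hc1a (0.975) and Prpf18 (0.969) followed Lep most closely. Syp encodes the vesicle protein synaptophysin, and Fstl3 a secreted protein that binds activins. Of 14152 genes, 78 had r over 0.9 with Lep and 24 with Adipoq. Ranbp6 (0.983), Spaca7 (0.967), Gde1 (0.960), Fam204a (0.955) and Sdhb (0.948) came closest to Adipoq, whose whole range in eWAT was from 18.95 to 19.24. Each end of that range is a single library that stood apart from its group, CT 3 (18.95) and F1 1 (19.24). By rank, these genes followed Adipoq less closely, with a Spearman rho from 0.663 (Spaca7) to 0.843 (Gde1).

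Whether the F1 difference depended on the tissue was tested as an interaction over 16 libraries, as the F1 minus CT difference in eWAT minus that in liver. Of the 9 members 0 were called, beside 0.0813% of all genes, and 4 had an unadjusted p under 0.05, beside 9.88% of all genes. All 4 were positive, while the share over all genes counts both directions. Adipor2 gave 0.995 ± 0.275 (limma, adjusted p = 0.227), from a difference of 0.80 in eWAT and -0.20 in liver. Cdh13 gave 0.86 ± 0.24 (adjusted p = 0.241), Lepr 1.11 ± 0.51 (0.489) and Rarres2 0.66 ± 0.30 (0.493). Lep gave -0.60 ± 0.32 (adjusted p = 0.553), with liver values too dim to carry a difference.

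The pathway on the adiponectin side was read from a list of 27 genes of adiponectin secretion and signalling. In liver 25 were tested, 19 with a higher and 6 with a lower mean in F1, with a median difference of 0.19 beside 0.00 over all genes, and 0 were called. Those with an unadjusted p under 0.05 were 6 higher and 0 lower, beside 4.48% and 4.67% of all genes. Hsp90b1, an endoplasmic reticulum chaperone, had 16.50, 16.65, 16.31 and 16.97 in F1 liver, against 15.57, 15.66, 16.01 and 16.01 in CT liver (0.80 ± 0.19, adjusted p = 0.202, and 0.0311 with the trended, robust variance). Calr, another chaperone which also binds adiponectin, differed by 0.43 ± 0.14 (0.370), the stress kinase Mapk14 by 0.45 ± 0.16 (0.439) and the transcription factor Cebpa by 0.36 ± 0.14 (0.482).

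In eWAT 24 genes of that list were tested, 15 with a higher and 9 with a lower mean in F1, and 0 were called. Ppara, a nuclear receptor that drives fatty acid oxidation, differed by 0.97 ± 0.33 (adjusted p = 0.412), the ceramidase Asah2 by 0.37 ± 0.16 (0.479) and the coactivator Ppargc1a by 0.75 ± 0.33 (0.493). Ppara is bright in liver, at 14.32 to 15.44 in F1, and its difference in eWAT was 1.66 among libraries low and 0.29 among libraries high in hepatocyte transcripts. For Ppargc1a these were 1.05 and 0.45. Leptin signalling genes in eWAT had 16 higher and 8 lower means of 25 tested, 0 were called, and Nr1h3 (LXR alpha) had the smallest p (0.48 ± 0.16, adjusted p = 0.402).

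Other adipokines were taken from a list of 41 genes, and 0 were called in either tissue. In liver, 28 were tested. Lcn2, lipocalin 2, had 7.68, 7.33, 11.75 and 12.62 in F1 liver, against 4.71, 5.58, 4.91 and 5.46 in CT liver. F1 3 and F1 4 were far above F1 1 and F1 2, and the difference of 4.68 ± 1.08 did not pass (adjusted p = 0.187) except in the fit of 16 libraries (0.0319). Angptl4, an inhibitor of lipoprotein lipase, differed by -0.72 ± 0.30 in liver (adjusted p = 0.506).

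In eWAT 33 of them were tested, 5 with an unadjusted p under 0.05 and a higher mean in F1, beside 4.97% of all genes, and 2 with a lower mean, beside 5.02%. Nrg4, a fat-derived ligand of ErbB receptors, had 14.78, 14.79, 14.94 and 14.53 in F1 eWAT, against 14.09, 13.93, 13.60 and 14.11 in CT eWAT. These groups did not overlap (0.83 ± 0.17, adjusted p = 0.362). Agt, angiotensinogen, differed by 0.59 ± 0.19 (0.401), the chemokine Ccl2 by -0.85 ± 0.28 (0.401) and the natriuretic peptide clearance receptor Npr3 by -0.64 ± 0.22 (0.412). Among libraries low in hepatocyte transcripts Agt differed by 0.785 and Npr3 by -0.89. Among those high in them Agt differed by 0.39 and Npr3 by -0.39. Agt is bright in liver, at 15.38 to 15.70 in F1. The part of hepatocyte transcripts in these differences was not tested.

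Other adipokine and complement receptors gave 0 calls among 25 tested in liver and 26 in eWAT. In liver, the interleukin-6 receptor Il6ra differed by 1.06 ± 0.38 (adjusted p = 0.455), Paqr4 of the adiponectin receptor family by -0.58 ± 0.22 (0.482), Lrp1 by 0.35 ± 0.13 (0.482) and Il6st by 0.41 ± 0.17 (0.513). In eWAT, the complement receptors C3ar1 and C5ar1, which are carried by macrophages, had the lower means in F1. C3ar1 lay at 12.21, 12.38, 12.84 and 13.20 in F1 eWAT, against 13.06, 14.01, 13.57 and 14.71 in CT eWAT (-1.18 ± 0.36, adjusted p = 0.389).

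C5ar1 differed by -0.88 ± 0.26 (limma, adjusted p = 0.389) and Erbb3 by 1.42 ± 0.46 (0.401). Erbb3 is bright in liver, at 11.42 to 12.02 in F1. It lay at 5.76, 6.55, 5.33 and 6.60 in F1 eWAT, against 4.48, 3.45, 5.58 and 5.04 in CT eWAT. The part of hepatocyte transcripts in that difference was not tested. The apelin receptor Aplnr differed by -0.52 ± 0.20 (0.426), which was -0.79 among libraries low and -0.26 among libraries high in hepatocyte transcripts. In the list of complement partners of Cfd and proteases that process chemerin, 0 of 15 genes in liver and 0 of 17 in eWAT were called, and 5 in eWAT had a lower mean in F1 with an unadjusted p under 0.05, beside 5.02% of all genes. C3ar1 and C5ar1, named above, stand in both lists and are among these 5 genes. The others included Ctss, a cathepsin of macrophages (-0.97 ± 0.35, limma, adjusted p = 0.412), and the complement inhibitor Cd55 (-0.87 ± 0.31, 0.412). Cd55 differed by -1.61 among libraries low and by -0.12 among libraries high in hepatocyte transcripts. Of 14 tested macrophage markers in eWAT, 12 had a lower mean in F1, 3 with an unadjusted p under 0.05 (beside 5.02% of all genes), and 0 were called. The part of macrophage number in these values was not tested.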

How the data were processed

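The authors deposited log2 expression values per probe set, and the submitters' processing notes name RMA and Transcriptome Analysis Console 4.0. RMA adjusts background, equalises array distributions and summarises probes. Total RNA (150 ng) was labelled per the labels' protocols. The genome build is not given in the sources used here. Arrays have no read depth, and 16 arrays limit the precision.

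Probe sets were named from the platform annotation: 19572 of 22206 had 1 symbol, 0 several and 2634 none. A RefSeq table changed 0 symbols, and for 55 symbols with several probe sets the brightest was kept. F1 and CT were compared within each tissue, and eWAT and liver within F1 and within CT, with limma 3.58.1 (R 4.3.3, lmFit and eBayes, 8 libraries each), plus an interaction over 16 libraries. Dim genes were left out, with a limit at the 25th percentile of probe-set means over the libraries of each fit. That limit was first taken over genes and was corrected after first results had been seen, which changed no member's call between F1 and CT. P-values were adjusted by Benjamini-Hochberg over all kept genes, and genes were called at an adjusted p under 0.05. Errors beside differences are the fit's SE. The fits were tested on simulated data.

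The members and gene lists were chosen with earlier results of these data known. Up to 4 genes of smallest p were named per list, and the 5 genes of highest Pearson r for Lep, Adipoq and Lepr. Leprot was named outside that rule. Alternatives were the filter, normalization, centring, variance model, array weights, replicate block, 1 fit of all libraries, and leaving out each library. Fits within eWAT libraries high or low in hepatocyte transcripts (list median of 14) were added after seeing the data. Same-numbered libraries were checked for pairing. Their deviations correlated at -0.053 to 0.048 between the liver groups and -0.258 to 0.176 between the eWAT groups. The numbers were therefore not treated as pairs of F1 and CT libraries. Between the tissues they correlated at 0.029 to 0.045 in F1 and 0.0097 to 0.041 in CT. Whether these share an animal is not given, and the main fits counted them as separate. The replicate block of the interaction was set within each tissue, so it could not model a shared animal. No more than 1.43% of values were equal between 2 libraries of a group.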

Additional observations from a re-analysis of the deposited data

Results flagged for a closer look

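In 5 of 36 groups of 4 libraries, 1 library stood far from the other 3 by Dixon's ratio, which flags about 1 in 20 groups by chance alone. Adipoq was 19.24 in eWAT F1 1, with the others at 19.10 to 19.11, and 18.95 in eWAT CT 3, with the others at 19.08 to 19.10. Both gaps are small on the log2 scale. Lepr was 6.25 in eWAT F1 1, with the others at 4.92 to 5.14. That library also held the seminal vesicle transcripts, and the part of these in its Lepr value was not tested. Liver CT 2 was low for Rarres2 at 9.17, with the others at 9.49 to 9.54, and for Adipor1 at 12.46, with the others at 12.85 to 12.93.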

How the results depend on the processing

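Between F1 and CT liver, 1 member was called in place of 0 with the filter at the 50th percentile, quantile normalization, centring or the trended, robust variance (Lepr each time), with 16 libraries in 1 fit (Cdh13), and without liver F1 4 (Lepr), for a range of 0 to 1 when single libraries were left out. In eWAT and in the interaction 0 members were called under all alternatives run. Over all genes, the 23 liver calls became 74 with the trended, robust variance, 51 in the fit of 16 libraries and 7 to 24 without single libraries (7 without CT 2 or F1 3, 8 without CT 4, 10 without CT 3 or F1 2). The 0 eWAT calls became 25 in the fit of 16 libraries and 0 to 1 without single libraries (1 without CT 4 or F1 4). The 12 interaction calls became 36 with the trended, robust variance and 7 to 25 without single libraries (7 without eWAT CT 3, 22 without liver F1 4, 25 without eWAT F1 3). In these 3 comparisons the cause was not tested. With replicate number as a block, liver calls numbered 6 and interaction calls 1, Lepr in liver had an adjusted p of 0.126 and Stat3 one of 0.0824, but the numbers are not shown to pair animals. Between the tissues, every F1 library correlated best with its own number, at 0.029 to 0.045, while CT libraries did not all do so, at 0.0097 to 0.041 (CT 2 of eWAT matched liver CT 1 best). Differences near 0 turned sign. In eWAT, F1 minus CT was -0.0652 for Adipoq after quantile normalization and 0.00563 for Cdh13 with array weights. Among libraries low in hepatocyte transcripts it was -0.01 for Adipor1 and 0.05 for Cdh13, and among those high in them -0.085 for Retn. Without single libraries it ran from -0.45 to 0.28 for Lepr, -0.0292 to 0.161 for Adipor1, -0.0575 to 0.0192 for Cdh13 and -0.43 to 0.19 for Cmklr1. The liver difference of Adipor1 ran from -0.14 to 0.0167 and the interaction of Retn from -0.0392 to 0.191. For eWAT minus liver, Adipor1 in CT was -0.065 after centring, Rarres2 in F1 was -0.85 after quantile normalization and -0.91 after centring, and Adipor2 in F1 was 0.32 after quantile normalization and -0.17 to 0.12 without single libraries. Signal limits Lep, Adipoq and Retn in liver, where they lie near the floor.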
